A study of Mus musculus with 8 samples.

Results

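The 6 genes described here, Mpo, Elane, Prtn3, Ctsg, Prss57 and Ms4a3, were chosen by name as genes of the primary (azurophil) granules of neutrophils and of the promyelocytes that make these granules. Each was found once among the 55414 genes listed by Ensembl identifier, after matching to symbols with GENCODE M21 (GRCm38), and all 6 were among the 16778 genes with enough counts to be tested. They were measured by RNAseq in neutrophils purified by flow cytometry from the spleen of 4 WT and 4 Cxcr2-/- mice, 1 library per mouse, positive for CD45, CD11b and Ly6G and negative for F4/80, after an earlier selection of CD11b+ cells. All animals were 10 weeks old, on the FVB background and kept under SOPF conditions, free of specific and opportunistic pathogens. In Cxcr2-/- mice the receptor is lost from every cell of the animal, so that the neutrophil's own receptor and that of other cells cannot be told apart in this comparison. The comparison addressed how loss of Cxcr2, a chemokine receptor of neutrophils, changes the transcriptome of these cells.

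Primary granules are the first granules formed during neutrophil development. Their myeloperoxidase and serine proteases are transcribed at the promyelocyte stage and are switched off before the cell matures, so that a mature neutrophil carries the proteins but little of their RNA. Secondary granule proteins, such as lactoferrin, are made later, in myelocytes and metamyelocytes, and the same early program is shared in part with precursors of monocytes.

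Counts on genes totalled 34.2 to 46.2 M per library in WT and 37.5 to 43.8 M in Cxcr2-/- mice. Expression is given as CPM, the counts of a gene per 1 M counts of its library, with library sizes scaled by TMM to adjust for differences in composition. Cxcr2 itself lay between 1719 and 2252 CPM in WT, against 12.9 to 20.7 CPM in Cxcr2-/- libraries, so that every library matched its label. The gated markers were present in all libraries, with Ly6g increased from 226 ± 41.5 to 539 ± 50.5 CPM in the Cxcr2-/- group (SD, n = 4 each), and 5 of 8 neutrophil markers rose. The 2 that fell were Ptprc, the gene of CD45, from 4354 ± 218 to 2553 ± 227 CPM, and Csf3r, while Itgam, the gene of CD11b, did not pass (417 ± 27.7 and 474 ± 51.7 CPM). The share of reads that the counting placed on no feature was 31.4% to 41.5% in WT and 26.7% to 31.9% in Cxcr2-/- libraries. How many of these reads lay within genes was not determined. Because these are bulk samples, a larger share of cells that express a gene and more RNA per cell cannot be told apart in any value below.

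Of the 6 genes, Prss57, Prtn3 and Elane lay close together on chromosome 10. Prtn3 (ENSMUSG00000057729, GRCm38 chr10:79874476-79883174, plus strand) ended 3072 bases before the start of Elane (ENSMUSG00000020125, chr10:79886247-79888215, plus strand). Prss57 (ENSMUSG00000020323, chr10:79781474-79790961, minus strand) lay 83.5 kb from Prtn3. Mpo (ENSMUSG00000009350, chr11:87793581-87804413, plus strand), Ctsg (ENSMUSG00000040314, chr14:56099881-56102574, minus strand) and Ms4a3 (ENSMUSG00000024681, chr19:11629496-11640851, minus strand) were on other chromosomes. Since these genes changed together, their promoters were read from RefSeq (GRCm38.p6), which matched 5 of them, and Prss57 had no entry. The sequences below run 5′ to 3′ on the strand of the gene from 250 bases before the RefSeq start, and end before the first base that GENCODE M21 places in an exon of the gene. They cover chr11:87793534-87793580 for Mpo, chr10:79886062-79886246 for Elane, chr10:79879417-79879613 for Prtn3, chr14:56102575-56102824 for Ctsg and chr19:11640852-11641101 for Ms4a3. GENCODE M21 also has a longer form of Prtn3 that begins upstream, so that the Prtn3 window lies within the annotated span of the gene. Capitals mark AGGAAGT, a core of the kind bound by ETS factors such as PU.1 (Spi1).
Mpo: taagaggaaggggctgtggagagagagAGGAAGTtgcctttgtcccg
Elane: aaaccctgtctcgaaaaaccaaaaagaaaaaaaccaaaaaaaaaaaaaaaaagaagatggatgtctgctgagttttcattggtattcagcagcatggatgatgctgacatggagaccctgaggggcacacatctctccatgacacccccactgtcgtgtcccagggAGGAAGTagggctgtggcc
Prtn3: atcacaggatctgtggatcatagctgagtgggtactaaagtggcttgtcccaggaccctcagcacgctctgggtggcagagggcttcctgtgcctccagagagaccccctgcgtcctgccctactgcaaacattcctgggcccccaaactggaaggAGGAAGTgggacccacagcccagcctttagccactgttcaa
Ctsg: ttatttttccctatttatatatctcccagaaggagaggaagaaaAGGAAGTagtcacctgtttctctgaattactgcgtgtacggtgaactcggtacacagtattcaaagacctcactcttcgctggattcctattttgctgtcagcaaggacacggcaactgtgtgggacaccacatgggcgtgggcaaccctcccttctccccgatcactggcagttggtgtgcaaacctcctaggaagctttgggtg
Ms4a3: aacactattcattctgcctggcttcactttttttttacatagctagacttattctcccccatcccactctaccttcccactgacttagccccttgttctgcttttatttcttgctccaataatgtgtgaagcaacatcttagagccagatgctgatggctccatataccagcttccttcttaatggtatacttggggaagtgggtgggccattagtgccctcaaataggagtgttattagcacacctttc

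AGGAAGT was found on the gene's strand in 4 of the 5 promoters, from 223 to 217 bases before the RefSeq start in Mpo, 206 to 200 in Ctsg, 94 to 88 in Prtn3 and 84 to 78 in Elane. On either strand, 7.70% of 32536 promoter windows of 250 bases held it. AACGG, 1 form of the MYB core AACNG, was found in Prtn3 from 55 to 51 and in Elane from 50 to 46 bases before the start, and in 14.4% of all windows. The neighbouring genes Prtn3 and Elane also shared TATAA, from 32 to 28 and from 31 to 27 bases before the start, which Ctsg held on the opposite strand and 22.7% of all windows held. AACNG itself was in 4 of the 5 promoters and in 74.1% of windows, the C/EBP-type TTNNGNAA in Ms4a3 and in 36.8%, the RUNX-type TGTGGT in Ctsg and in 14.0%, and the GFI1-type AAATCA in none of the 5 and in 12.3%. All motifs were searched on both strands. The TATAA matches of Prtn3 and Elane and the AACGG match of Elane lie past the end of the sequences printed here, where an exon of GENCODE M21 begins. The same holds for the AACNG match of Mpo, from 165 to 161 bases before the start. The AACGG match of Prtn3 begins at the end of the printed sequence and runs into the exon. The motifs were chosen after the sequences had been read, and a match describes letters in the window only.

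Mpo, which encodes the myeloperoxidase that turns hydrogen peroxide into hypochlorous acid, was low in WT neutrophils, higher in every Cxcr2-/- mouse and uneven between these mice. In WT libraries Mpo was at 1.5, 2.35, 6.25 and 1.13 CPM (replicates 1 to 4). In Cxcr2-/- libraries it was at 19.1, 20.2, 81.2 and 146 CPM. The groups did not overlap, since the lowest Cxcr2-/- library lay above the highest WT library, and Cxcr2-/- replicates 3 and 4 stood well above replicates 1 and 2. The mean increased from 2.81 ± 2.35 to 66.5 ± 60.3 CPM (SD, n = 4 each), a 23.8-fold difference (log2 fold change 4.58, SE 0.71, adjusted p = 2.26e-04, quasi-likelihood test of edgeR with Benjamini-Hochberg adjustment, as for all genes below).

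Like Mpo, Elane, Prtn3 and Ctsg were highest in WT replicate 3 and in Cxcr2-/- replicates 3 and 4. Elane, the gene of neutrophil elastase, was at 1.30, 1.19, 2.11 and 0.289 CPM in WT and at 12.0, 14.5, 55.5 and 93.2 CPM in Cxcr2-/- libraries. Its 4 Cxcr2-/- libraries were all above its 4 WT libraries, and the lowest WT value rested on 10 counts. Elane increased 35.5-fold (log2 fold change 5.15, SE 0.69, adjusted p = 7.25e-05 in edgeR). Prtn3, the gene of proteinase 3, was at 1.11, 1.21, 3.53 and 0.868 CPM in WT and at 20.4, 17.5, 63.5 and 92.1 CPM in Cxcr2-/- libraries. As for Mpo, WT replicate 3 and Cxcr2-/- replicate 4 were the highest of their groups, with no overlap between the groups. Prtn3 increased 29.1-fold (log2 fold change 4.86, SE 0.60, adjusted p = 3.69e-05 in edgeR).

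Ctsg, the gene of cathepsin G, had the lowest level of the 6 genes in WT neutrophils. It was at 0.0442, 0.121, 0.588 and 0.116 CPM in WT libraries, which are 2, 6, 22 and 4 counts, and at 1.87, 2.49, 7.55 and 20.03 CPM in Cxcr2-/- libraries, which are 74, 90, 297 and 824 counts. The groups did not overlap, but the WT level rests on few counts, and 22 of them came from replicate 3. The fitted change was 37.9-fold (log2 fold change 5.24, SE 0.86, adjusted p = 3.28e-04 in edgeR), and its size depends on single libraries. The log2 fold change of Ctsg was 6.38 without WT replicate 3 and 4.22 without Cxcr2-/- replicate 4. Those same libraries moved Mpo to 5.29 and 3.84, Prtn3 to 5.49 without WT replicate 3, and Elane to 4.46 without Cxcr2-/- replicate 4, and all of these kept an adjusted p under 0.05.

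Ms4a3 encodes a membrane protein of the MS4A family found in granulocyte and monocyte progenitors. Ms4a3 varied less among Cxcr2-/- mice than Mpo, Elane, Prtn3 and Ctsg did. It was at 4.02, 3.60, 4.84 and 1.97 CPM in WT and at 17.1, 17.1, 27.9 and 34.95 CPM in Cxcr2-/- libraries. Every Cxcr2-/- library was above every WT library, and replicates 3 and 4 were again the highest Cxcr2-/- libraries. Ms4a3 increased 6.71-fold (log2 fold change 2.75, SE 0.28, adjusted p = 9.68e-06 in edgeR).

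Prss57, the gene of the neutrophil serine protease 4, changed least and varied least. It was at 5.13, 3.98, 4.84 and 5.29 CPM in WT and at 12.2, 9.30, 12.0 and 12.5 CPM in Cxcr2-/- libraries. Its groups did not overlap either, but its lowest Cxcr2-/- library was replicate 2 and the other 3 were within 1 CPM of each other. Prss57 increased 2.39-fold (log2 fold change 1.26, SE 0.15, adjusted p = 2.81e-05 in edgeR). Fstl3, on the opposite strand, overlaps Prss57 and rose from 1.62 to 3.61 CPM, and Plppr3 overlaps Prtn3 in the same way and rose from 3.10 to 7.34 CPM. The libraries kept the strand but the strand setting of the counting was not given in the sources used here, so that reads of these pairs may be mixed.

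**Figure D1:**
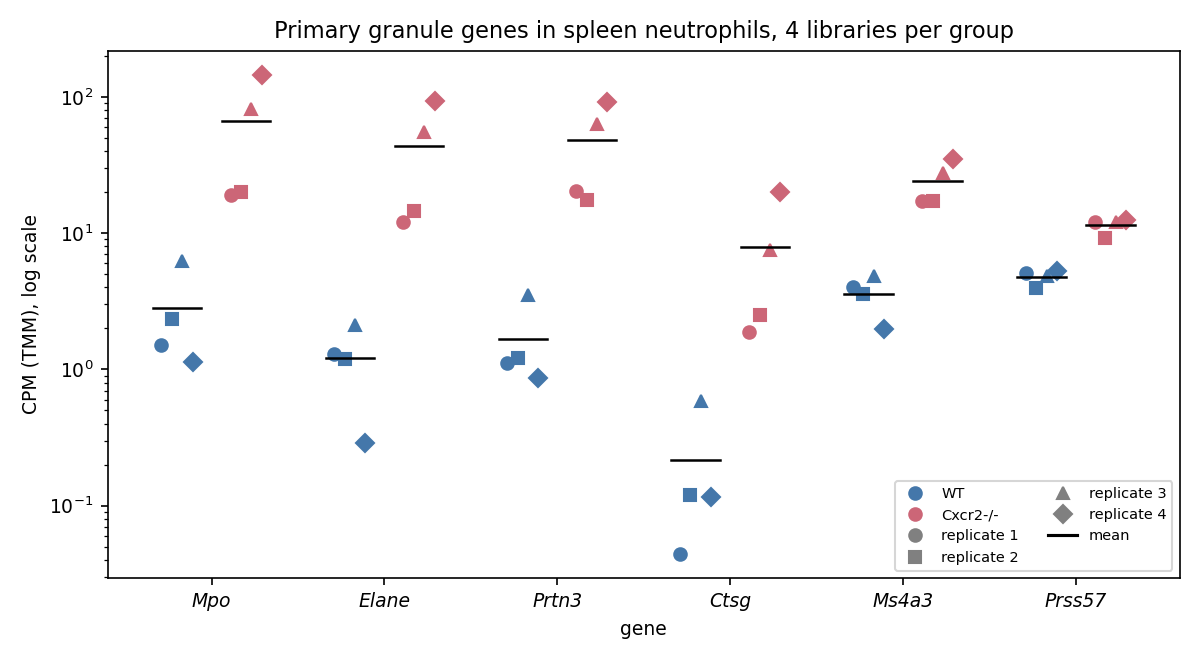
CPM of the 6 genes in each of the 8 libraries, on a log axis, with WT in blue, Cxcr2-/- in red, a symbol for each replicate and a black bar for the mean of a group. For each gene the 4 red points lie above the 4 blue points, Mpo spans 19.1 to 146 CPM among Cxcr2-/- libraries and Prss57 spans 9.30 to 12.5 CPM.

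All 6 genes were called higher in Cxcr2-/- neutrophils, which means an adjusted p under 0.05 and a change of at least 1.5-fold. Of the 16778 genes tested, 15.7% were called higher. By adjusted p alone, all 6 were higher, where 23.7% of tested genes were higher and 21% lower. In all 6 the lowest Cxcr2-/- library was above the highest WT library, which held for 22.5% of tested genes. The median log2 fold change was 4.72 over the 6 genes and 0.01 over all genes tested. Ctsg, Elane, Prtn3 and Mpo took places 8, 9, 10 and 11 when the tested genes were ordered from the largest increase, Ms4a3 was at place 55 and Prss57 at place 805.

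**Figure D2:**
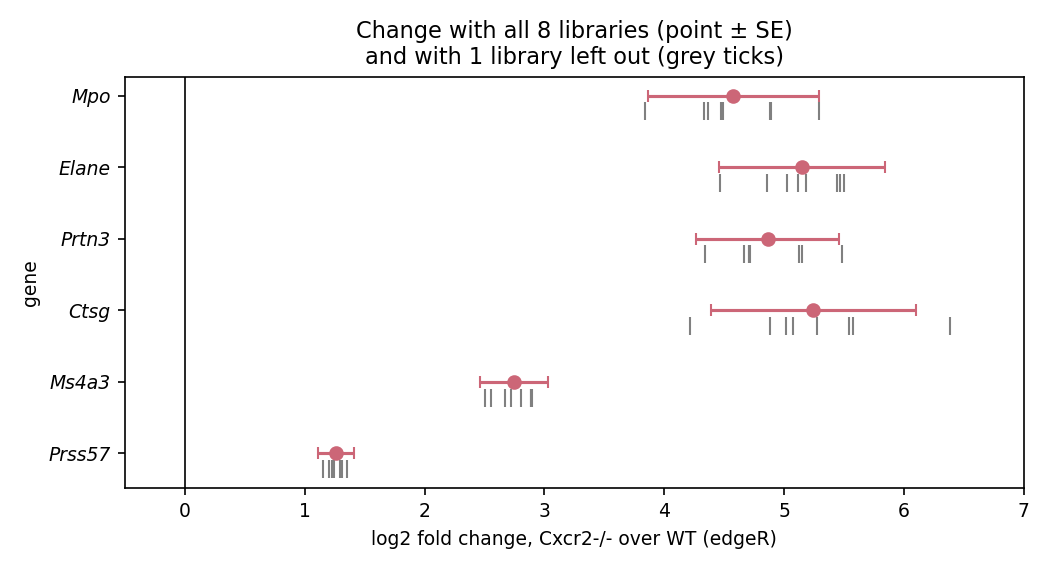
Log2 fold change of Cxcr2-/- over WT for each gene with all 8 libraries (red point, bar of 1 SE) and with each library left out in turn (grey ticks). All ticks stay right of 0, from 1.15 to 1.35 for Prss57 and from 4.22 to 6.38 for Ctsg.

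Whether the genes changed by different amounts was tested with ratios between genes within a library, which do not depend on how libraries are scaled. The log2 ratio of Mpo to Elane counts was 0.66, 0.47, 0.55 and 0.65 in Cxcr2-/- replicates 1 to 4, while the levels of Mpo and Elane differed 7.65-fold and 7.75-fold among these mice. In WT libraries the same ratio ran from 0.20 to 1.91, and the difference between the groups (-0.58) was not significant (exact permutation test, two-sided, p = 0.229, adjusted p = 0.286 over 15 pairs). The log2 ratio of Mpo to Prss57 was between -2.22 and 0.37 in WT and between 0.64 and 3.54 in Cxcr2-/- libraries, a difference of 3.11. Ratios to Prss57 differed by 3.69 for Elane, 3.47 for Prtn3 and 3.81 for Ctsg, and that of Prss57 to Ms4a3 by -1.50. The ratios to Ms4a3 differed by 2.19 for Elane and 1.98 for Prtn3, and in these 7 pairs no library of a group fell within the range of the other group. With 4 mice against 4, the smallest p the exact permutation test can give is 0.0286, which these 7 pairs reached, and with adjustment over the 15 pairs it became 0.0612, so that no pair passed. The ratio to Ms4a3 differed by 1.61 for Mpo (unadjusted p = 0.0857) and by 2.32 for Ctsg (unadjusted p = 0.0571), both by the exact permutation test. Among Mpo, Elane, Prtn3 and Ctsg the differences in ratio ran from -0.71 to 0.21, with unadjusted p from 0.143 to 0.914 in the same exact permutation test.

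**Figure D3:**
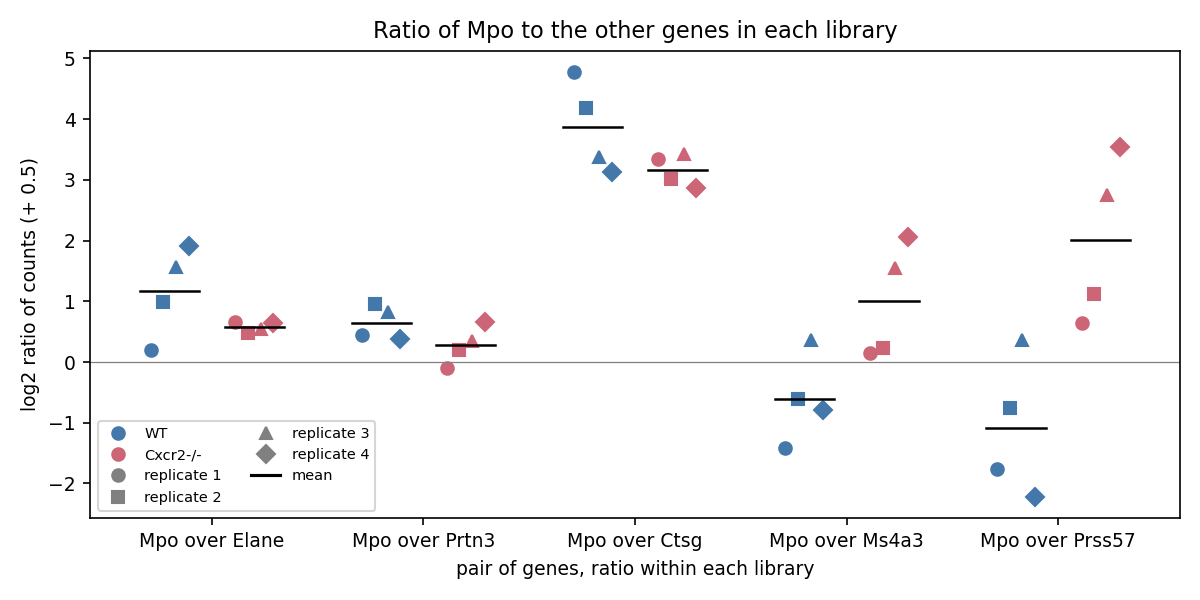
Log2 ratio of Mpo counts to the counts of each of the other 5 genes within each library (0.5 added to each count), WT in blue and Cxcr2-/- in red, with the group mean as a black bar. The 4 Cxcr2-/- ratios of Mpo to Elane lie between 0.47 and 0.66, while those of Mpo to Prss57 spread from 0.64 to 3.54.

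To compare levels between genes, CPM were divided by the length of each gene's exons in kb, with the exons of all annotated forms joined. In WT neutrophils Ms4a3 (1.91 ± 0.64 CPM per kb) and Prss57 (1.69 ± 0.21 CPM per kb) came first, before Elane (1.24 ± 0.76), Prtn3 (0.968 ± 0.717), Mpo (0.820 ± 0.687) and Ctsg (0.210 ± 0.242). Prtn3 was above Mpo and Mpo above Ctsg in 4 of 4 libraries, whereas each of the first 3 genes was above the next in 3 of 4. In Cxcr2-/- neutrophils the order per kb was Elane (44.5 ± 39.1), Prtn3 (27.9 ± 20.7), Mpo (19.4 ± 17.6), Ms4a3 (12.9 ± 4.64), Ctsg (7.73 ± 8.15) and Prss57 (4.05 ± 0.52). Elane was above Prtn3 and Prtn3 above Mpo in 4 of 4 libraries, while Mpo and Ms4a3, and Ctsg and Prss57, changed places between mice (2 of 4 libraries each). In CPM, however, Prtn3 was above Elane in Cxcr2-/- replicates 1 to 3 (20.4, 17.5 and 63.5 against 12.0, 14.5 and 55.5). Mpo was likewise above Prtn3 in CPM in every WT library. The order of these genes per kb thus rests on the exon lengths used (1732 bases for Prtn3, 984 for Elane and 3424 for Mpo).

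For Mpo, Elane, Prtn3 and Ctsg, the spread among the Cxcr2-/- mice was among the widest of the genes tested. The highest Cxcr2-/- library exceeded the lowest 10.7-fold for Ctsg, 7.75-fold for Elane, 7.65-fold for Mpo and 5.26-fold for Prtn3, but 2.04-fold for Ms4a3 and 1.35-fold for Prss57. In WT this ratio was 13.3 for Ctsg, on 2 to 22 counts, 7.30 for Elane, 5.54 for Mpo and 4.07 for Prtn3. It was 2.46 for Ms4a3 and 1.33 for Prss57 in WT, so that a wide ratio was not particular to the Cxcr2-/- mice. The shares of genes below were computed for Cxcr2-/- libraries only. As SD of log2 (CPM + 1), the spread of Mpo was larger than that of 99.97% of tested genes. This share was 96.6% for Ms4a3 and 54.1% for Prss57. Among genes of a like level (within 1 log2 CPM) the shares were 99.97% for Mpo, 95.9% for Ms4a3 and 49.3% for Prss57. Relative to the group mean, Mpo was at -1.25, -1.17, 0.79 and 1.63 on the log2 scale in Cxcr2-/- replicates 1 to 4. The median of 10 secondary granule genes was at 0.26, 0.01, -0.04 and -0.26 in the same libraries, but Fcnb, 1 of these genes, was highest in replicates 3 and 4 (87.0, 81.2, 104 and 113 CPM). The median of 12 cell cycle genes was at -0.07, -0.10, 0.16 and -0.04, which does not describe each gene. Genes of DNA replication were higher in replicates 3 and 4, as Mpo was, with Mcm3 at 13.3, 14.6, 24.4 and 29.3 CPM and Rrm2 at 30.8, 34.5, 44.9 and 50.8 CPM, and Mcm5, Pcna and Tyms were likewise highest in these libraries.

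The median of 8 monocyte markers, relative to the group mean, was -0.87, -0.87, 0.85 and 0.80 in Cxcr2-/- replicates 1 to 4. F13a1, a coagulation factor subunit of monocytes, was at 5.20, 8.24, 8.18 and 3.70 CPM in WT and at 8.11, 8.77, 38.4 and 57.8 CPM in Cxcr2-/- libraries. Ccr2, the chemokine receptor of inflammatory monocytes, was at 6.83, 8.94, 9.06 and 4.34 CPM in WT and at 7.48, 8.85, 34.4 and 45.7 CPM in Cxcr2-/- libraries. For both genes Cxcr2-/- replicates 1 and 2 lay within the WT range or less than 1 CPM above it, and replicates 3 and 4 above it. This does not hold for each marker, since Ly6c2, a surface protein of monocytes, was at 663, 634, 639 and 573 CPM in Cxcr2-/- libraries against at most 270 CPM in WT, and Fn1 (fibronectin) was at 34.5 CPM in Cxcr2-/- replicate 1 against at most 29.2 CPM in WT. Other markers had Cxcr2-/- libraries below WT. Klf4 was at 3.69, 3.98, 14.8 and 14.2 CPM, against 12.5 to 14.8 CPM in WT. Csf1r was at 202, 190, 269 and 268 CPM, against at least 403 CPM in WT. Irf8 was at 5.01, 3.02, 10.0 and 12.3 CPM (WT 4.31 to 7.90), and Cx3cr1 at 3.26, 5.67, 14.5 and 11.7 CPM (WT 4.60 to 8.91). Of the 8 monocyte markers, 4 rose (Ly6c2, F13a1, Fn1 and Ccr2), Csf1r fell and 3 did not pass. Their summed level was 693 to 835 CPM in WT and 878 to 1149 CPM in Cxcr2-/- libraries, none was at 0, and their part in the results was not tested. Most of each sum came from Csf1r and Ly6c2, which moved in opposite directions, so that the sum says little about the other markers. Of the other marker lists, 2 of 7 tested eosinophil markers rose (Epx and Prg2) and 2 fell (Siglecf and Ccr3), with a summed level of 58.8 to 85.1 CPM in WT and 45.4 to 79.4 CPM in Cxcr2-/- libraries. Among basophil and mast cell markers, 7 of 8 stayed under 1 CPM in every library, and of 2 tested Ms4a2 rose. In the red pulp macrophage list 1 of 8 rose (Hmox1) and 1 fell (Adgre1, the gene of F4/80, 30.6 to 12.3 CPM), 6 of 8 B cell markers fell, 1 of 6 tested T and NK cell markers fell (Cd2), none of 5 tested erythroid markers passed, and 2 of 3 tested megakaryocyte and platelet markers fell.

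**Figure D4:**
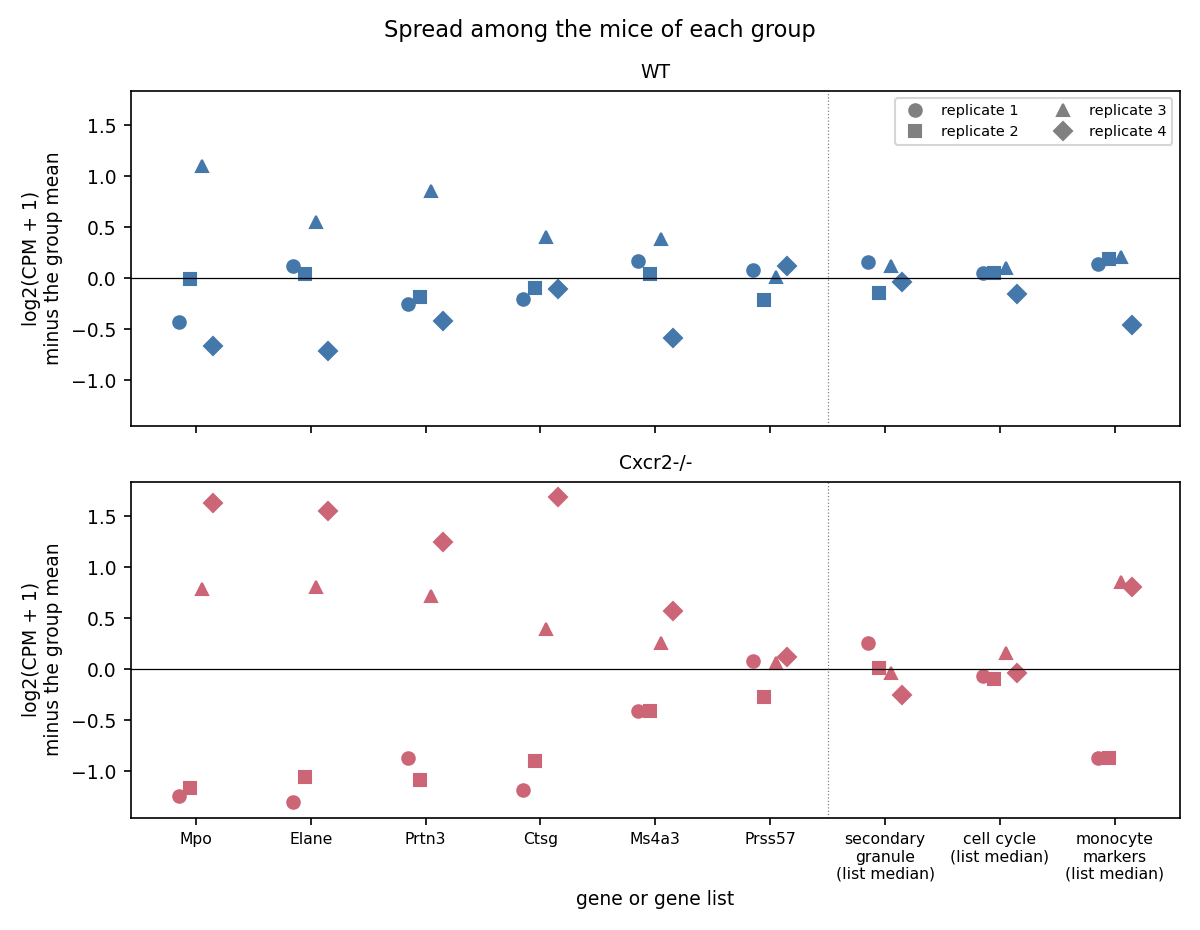
Log2 (CPM + 1) of each library minus the mean of its group, for the 6 genes and for the medians of 3 gene lists (10 secondary granule genes, 12 cell cycle genes, 8 monocyte markers), WT in blue above and Cxcr2-/- in red below, with a symbol per replicate. In Cxcr2-/- mice, replicates 3 and 4 are high for Mpo (0.79 and 1.63) and for the monocyte markers (0.85 and 0.80), while Prss57 and the secondary granule median stay near 0.

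The genes that process, pack and inhibit these proteases were examined next. Of 10 such genes, 6 rose, 1 fell and 3 did not pass. With 1 library left out, 5 to 7 rose, and 5 rose without WT replicate 2, 3 or 4 or without Cxcr2-/- replicate 1, 3 or 4. Ctsc, the dipeptidyl peptidase that activates the granule proteases, was at 15.3, 18.1, 14.3 and 9.55 CPM in WT and at 27.8, 34.4, 63.7 and 61.4 CPM in Cxcr2-/- libraries. The groups did not overlap and Cxcr2-/- replicates 3 and 4 were again the highest (log2 fold change 1.71, SE 0.26, adjusted p = 2.07e-04 in edgeR). Serpinb1a, a cytosolic inhibitor of elastase, cathepsin G and proteinase 3, increased from 229 ± 18.4 to 578 ± 36.4 CPM (log2 fold change 1.33), and Serpinb6a, an inhibitor of cathepsin G, increased by 0.78 on the same scale. Canx (0.55), a chaperone of the endoplasmic reticulum, Ap3b1 (0.49), which serves sorting to granules, and Cd63 (0.25), a granule membrane protein, also increased. Srgn, the proteoglycan serglycin that holds proteases in the granule, moved the other way, from 1177 ± 133 to 486 ± 105 CPM (log2 fold change -1.28, adjusted p = 3.04e-05 in edgeR). Calr, Slpi and Hax1 did not pass, with log2 fold changes of 0.24, -0.05 and 0.12.

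The genes listed as other contents of the azurophil granule encode enzymes and other proteins, many of which lysosomes also hold. Those tested had smaller log2 fold changes than Mpo, Elane, Prtn3, Ctsg and Ms4a3, a difference that was not tested. Of 12 listed, 11 were tested, 5 rose and 1 fell, but 3 rose without WT replicate 2 or 4 or without Cxcr2-/- replicate 3 or 4. Among those that rose, Arsb, a sulfatase, had a log2 fold change of 1.18 and Lyz2, lysozyme, of 0.86, and Npc2 (0.33) and Lamp1 (0.27) rose by less. Man2b1, a lysosomal mannosidase, fell by 0.48. Gusb, Hexa, Ctsb, Ctsd and Cd68 did not pass, with log2 fold changes between -0.23 and 0.30. Bpi was not tested and stayed at or under 0.214 CPM in every library. The median log2 fold change of the list was 0.28, against 4.72 for the 6 genes.

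Among 10 transcription factors that act on these genes in early granulopoiesis, 5 rose and 2 fell, but 4 rose without WT replicate 2, 3 or 4 or without Cxcr2-/- replicate 2, 3 or 4. Cebpe, which is needed for the step from promyelocyte to myelocyte, was at 89.4, 77.4, 77.7 and 86.3 CPM in WT and at 252, 187, 165 and 138 CPM in Cxcr2-/- libraries. Cebpe was thus highest in the Cxcr2-/- mouse with the least Mpo and lowest in the mouse with the most (log2 fold change 1.17, SE 0.15, adjusted p = 6.58e-05 in edgeR). Myb, a factor of proliferating progenitors, was at 11.7, 11.5, 11.7 and 11.4 CPM in WT and at 19.3, 24.9, 20.8 and 21.6 CPM in Cxcr2-/- libraries, without overlap (log2 fold change 0.90). Ets1 (0.72), Gfi1 (0.64) and Cbfb (0.25) also rose on the log2 scale. Cebpa, which starts the granulocyte program, fell by 0.57, and Cebpb, which serves emergency granulopoiesis, fell by 1.01. Spi1, the gene of PU.1, was at 709 ± 71.0 and 703 ± 97.1 CPM, and Spi1, Runx1 and Cebpd did not pass.

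Among the genes listed for stem cells and early progenitors, Kit, Cd34, Flt3 and Sox4 did not pass in either direction. Of 10 listed, 7 were tested, 2 rose (Nkg7 and Clec12a) and 1 fell (Csf3r), and 5 stayed under 1 CPM in every library. Csf3r is also 1 of the neutrophil markers above, and the genes that passed give no direction for Kit, Cd34, Flt3 or Sox4. Kit, the receptor of stem cell factor, had a mean of 22.2 ± 9.24 CPM in WT against 28.5 ± 8.05 CPM in Cxcr2-/- mice, with overlapping groups (log2 fold change 0.36, adjusted p = 0.279 in edgeR). Cd34 (0.50 and 0.395 CPM) and Sox4 (0.312 and 0.301 CPM) were close to absent and Flt3 (4.28 and 1.82 CPM) was low, and none of them passed. Hoxa9 had no count in any library. Nkg7, a granule membrane protein, was low and increased from 0.644 ± 0.486 to 3.69 ± 1.94 CPM (log2 fold change 2.48, adjusted p = 9.40e-04 in edgeR), the lectin receptor Clec12a increased by 0.61, and Csf3r, the receptor of G-CSF, fell by 1.06 on the log2 scale.

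Genes of the later, secondary granules and of the cell cycle rose as well, set beside 23.7% of all tested genes. Of 10 secondary granule genes, 9 rose, with log2 fold changes from 0.65 for Hp to 1.89 for Fcnb (ficolin B), and Olfm4 did not pass (-0.28) but fell without WT replicate 4. Lcn2 (lipocalin 2) increased by 1.57, Cd177 by 1.49 and Ltf (lactoferrin) by 1.28. Of 12 cell cycle genes, 11 rose, from 1.26 for Tyms to 2.38 for the mitotic cyclin gene Ccnb1, and Pcna did not pass (-0.43) but fell without Cxcr2-/- replicate 3 or 4. Ccnb1 increased from 5.73 ± 0.547 to 29.9 ± 1.29 CPM. The median log2 fold changes were 1.25 for the secondary granule list and 1.79 for the cell cycle list.

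Most relatives of the 6 genes were at low levels. Of 13 listed peroxidases, granule serine proteases and MS4A genes, 7 were tested, 4 rose and 1 fell, and 8 stayed under 1 CPM in every library. With 1 library left out, 2 to 4 of these genes passed, 2 of them without Cxcr2-/- replicate 3. Epx, the eosinophil peroxidase and neighbour of Mpo, was at 0.0884, 0.241, 0.882 and 0.116 CPM in WT and at 1.06, 0.609, 2.24 and 5.10 CPM in Cxcr2-/- libraries, so that the groups overlapped (log2 fold change 2.78, SE 0.73, adjusted p = 8.12e-03 in edgeR). Ms4a6d (1.66), Ms4a2 (1.45) and Ms4a6c (1.14) rose, and the B cell gene Ms4a1 fell by 1.34 on the log2 scale. Gzma and Gzmb did not pass, and Lpo, Mcpt8, Cma1, Cfd and Ms4a4b were too low to be tested.

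The pattern most like that of the 6 genes was sought among 9162 genes with at least 5 CPM in a group, as the smallest root mean square difference over the 8 libraries from the mean of the 6 genes, on the log2 (CPM + 1) scale after centring each gene. The 10 nearest genes were Stfa2, Stfa3, BC100530, Prg2, BC117090, Kcnn3, Tmem256, Npl, Saa3 and Hist1h1b, with differences from 0.378 to 0.644 log2 units. Of the 6 genes themselves, Ctsg (0.370) and Ms4a3 (0.415) were nearest to their common mean and Prss57 was farthest (1.10). Prtn3 (0.543), Elane (0.572) and Mpo (0.574) lay between. Elane and Mpo were thus farther from that mean than Stfa2, Stfa3, BC100530, Prg2 and BC117090 (0.570) were. The order describes likeness to the mean and not to each of the 6 genes. Stfa2, a stefin and thus an inhibitor of cysteine proteases, was at 14.7, 8.92, 17.3 and 9.63 CPM in WT and at 58.5, 98.0, 166 and 153 CPM in Cxcr2-/- libraries. Stfa2 shared with Mpo the high WT replicate 3 and the higher Cxcr2-/- replicates 3 and 4. The stefin genes Stfa2, Stfa3, BC100530 and BC117090 are related genes close together on chromosome 16. Their sequences were not compared, and counts may be divided among them where they are alike. Prg2, the major basic protein of eosinophil granules, was at 0.177, 0.804, 3.74 and 0.116 CPM in WT and at 5.06, 2.63, 11.0 and 16.3 CPM in Cxcr2-/- libraries. Its highest WT library was replicate 3 and its highest Cxcr2-/- library replicate 4, as for Mpo, but its groups overlapped.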

How the data were processed

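RNA of spleen neutrophils from 4 WT and 4 Cxcr2-/- mice was sequenced after depletion of ribosomal RNA, with 1 directional library for each animal. The authors aligned trimmed reads with STAR (mm10), used HTSeq for counting, and deposited unnormalized whole-number counts per gene. Aligner settings, strand setting and annotation release are not given in the sources used here. Of 55414 identifiers, 52081 had an entry in GENCODE M21. Of those, 99.93% carried a later version number than in M21, so exon lengths and positions come from an older release than the counts, and 1.43% of counts lay on identifiers without an entry. HTSeq's own totals entered no library size or test.

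Counts were compared in R 4.3.3 with edgeR 4.0.16 (filterByExpr, TMM, quasi-likelihood test, group as the sole term, Benjamini-Hochberg over all 16778 genes tested). The SE is the log2 fold change over the square root of F. The study's own tool, DESeq2 (1.42.0 here), was an alternative. On simulated counts with 200 of 16778 genes changed, the steps recovered 97% of 4-fold and 73% of 2-fold changes and called 6 unchanged genes. Every simulated gene had the same common dispersion, and in the data 5256 genes were called. These figures therefore do not describe genes as variable between mice as Mpo, Elane, Prtn3 and Ctsg. No 2 libraries of 1 group were as alike as sampling noise alone would make them (mean chi-square per gene 23.9 to 99.0). The common biological coefficient of variation in edgeR was 0.202. Depth of 34.2 to 46.2 M counts sets a floor of 3 counts at 0.0649 to 0.0877 CPM.

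Pairs of genes were compared as log2 ratios of counts + 0.5 with an exact permutation test, two-sided. The genes, lists and motifs were chosen with earlier results of these data known. Named genes are the 6 genes, Cxcr2, the lists' genes, protein-coding genes within 100 kb, and the 10 genes of most like pattern. Alternatives were DESeq2, RLE, upper-quartile and total-count scaling, no filter or at least 10 counts in every library, a robust fit, protein-coding genes only, the replicate number as a block, other pseudocounts, and each library left out. Some genes of the lists are not reported here.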

Additional observations from a re-analysis of the deposited data

Results flagged for a closer look

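In groups of 4 libraries, a value is listed here when its gap to the nearest other library, divided by the range of its group, exceeded Dixon's critical value for 4 values. Chance gives about 1 in 20 groups, and 13 of 268 groups over all genes compared here were past it, 3 of them among the 12 groups of the 6 primary granule genes. In WT, Prtn3 was highest in replicate 3 at 3.53 CPM and Ctsg was highest in the same library at 0.588 CPM, which is 22 counts. In Cxcr2-/- mice, Prss57 was lowest in replicate 2 at 9.30 CPM.

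Among genes of the other lists, Man2b1 was highest in Cxcr2-/- replicate 1 at 960 CPM (the other libraries of the group reached 851 CPM), and Arsb was highest in replicate 3 at 82.4 CPM. In WT, Gfi1 was lowest in replicate 3 at 7.56 CPM, Nkg7 was highest in replicate 2 at 1.37 CPM and Cd3g was highest in replicate 1 at 1.35 CPM. WT replicate 4 was lowest for Top2a at 47.4 CPM, Rrm2 at 11.0 CPM, Ms4a6d at 1.13 CPM and Hmox1 at 91.3 CPM, and Top2a was highest in Cxcr2-/- replicate 2 at 245 CPM.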

How the results depend on the processing

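All 101 alternative values of the 6 log2 fold changes kept their direction and an adjusted p under 0.05, the highest being 0.0103 for Mpo with the robust edgeR fit. Ctsg had no value when at least 10 counts were asked of every library, and all 6 genes stayed called otherwise. With 1 library left out, the log2 fold change ranged from 3.84 to 5.29 for Mpo, 4.46 to 5.501 for Elane, 4.34 to 5.49 for Prtn3, 4.22 to 6.38 for Ctsg, 2.503 to 2.90 for Ms4a3 and 1.15 to 1.35 for Prss57. Whether same-numbered mice were paired is not given in the sources used here. The correlation of same-numbered libraries ran from -0.31 to 0.24 and exceeded 0.1 in 2 of 4 pairs, and 2 of 4 WT libraries correlated best with their own number. With so few libraries, these correlations cannot show whether mice were paired. With the replicate block 4988 genes were called instead of 5256, and the log2 fold changes were 4.22 for Mpo, 4.66 for Elane, 4.65 for Prtn3, 4.98 for Ctsg, 2.71 for Ms4a3 and 1.26 for Prss57. The list of relatives had 5 genes that passed, and 3 with DESeq2, 3 with upper-quartile scaling, 2 with at least 10 counts in every library, 3 with the robust fit, 2 with the replicate block, 3 without any 1 WT library or without Cxcr2-/- replicate 4, 2 without Cxcr2-/- replicate 3 and 4 without Cxcr2-/- replicate 1 or 2, and the cause was not tested. Of the other azurophil granule contents, 3 rose and 2 fell with upper-quartile or total-count scaling or with protein-coding genes only. With DESeq2, any other scaling, either other filter or protein-coding genes only, 4 instead of 5 transcription factors rose. In the same settings, 5 instead of 6 of the genes that process, pack and inhibit the proteases rose. For ratios between the 6 genes, other pseudocounts (1 and 0) gave 0 pairs that passed after adjustment and 7 at the smallest p. Leaving out each library, an alternative chosen after seeing the data, gave 0 passing pairs and between 3 (without WT replicate 4) and 8 (without WT replicate 3) at the smallest p, 0.0286 in the exact permutation test of the absolute difference. Depth limits Ctsg most, with 2 to 22 counts per WT library.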

Other observations

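The surroundings of the 6 genes gave values of their own. Within 100 kb lay 45 protein-coding genes, of which 26 were tested, 16 rose and 2 fell, where 23.7% of all tested genes rose. On chromosome 10, around Prss57, Prtn3 and Elane, 12 of 18 tested neighbours rose and none fell. Cfd, the complement factor D gene 2.64 kb from Elane, had means of 0.134 CPM (WT) and 0.166 CPM (Cxcr2-/-), too low to be tested. On its other side, Prtn3 rose with Elane, and Ptbp1, a splicing regulator 9.71 kb from Prtn3, rose from 27.5 to 55.6 CPM (log2 fold change 1.02). Med16, a subunit of the mediator complex 6.49 kb from Elane, rose from 13 to 30.6 CPM (log2 fold change 1.24), so that the change of these neighbours was far below that of Elane (5.15). The rise of Prss57 (1.26), in contrast, was close to that of its neighbours Plppr3 (1.24) and Fstl3 (1.15). Palm (0.28) and Misp (-0.59), which are also near Prss57, did not pass.

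Around Ctsg on chromosome 14, none of 9 protein-coding neighbours was tested. They are mast cell protease and granzyme genes of the same protease cluster, and none exceeded a group mean of 0.120 CPM (Mcpt4 in WT), while Ctsg reached 7.98 ± 8.42 CPM in Cxcr2-/- neutrophils. Around Mpo, Lpo, the lactoperoxidase gene 2.02 kb away, had means of 0.0488 CPM (WT) and 0.0265 CPM (Cxcr2-/-), Tspoap1 rose (log2 fold change 1.37), and Supt4a (-0.45) and Rnf43 (-0.55) fell on the log2 scale.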
